A study of Mus musculus with 6 samples.

Results

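Cholesterol synthesis genes were examined in choroid endothelial cells (ECs) of developing (P5) and adult (P30) mice. The genes were taken by symbol and comprised 8 enzymes of the pathway (Hmgcs1, Mvd, Idi1, Fdps, Fdft1, Sqle, Lss and Cyp51) and Srebf2, which encodes a transcription factor and no enzyme. Of these 9 genes, 8 had a value among the 22026 gene symbols, and Hmgcs1 was not analysed here. The mice were 129/B6 at both ages, sampled on postnatal day 5 or 30, with 3 isolations per age and 7 animals pooled in each isolation. RPE/choroid tissue was dissected and digested, and ECs that had bound an antibody injected at both ages to VE-Cadherin, an endothelial adhesion protein, were sorted by flow cytometry before RNA was extracted and sequenced. Expression was given as FPKM, a level scaled to transcript length and to the size of the library, and values of single isolations are listed in the order of replicates 1, 2 and 3. The depth of each sample is unknown from these values, so no counting error can be given.

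Cells make cholesterol from acetyl-CoA in the mevalonate pathway, whose early steps yield isoprenoid diphosphates and whose later steps close and trim the sterol rings. The transcription factor SREBP2, encoded by Srebf2, is held in the endoplasmic reticulum when sterols are plentiful and is cleaved and sent to the nucleus when they are scarce, where it raises transcription of nearly every enzyme of the pathway. ECs also take up cholesterol from lipoproteins and export it, and the choroidal vessels lie between the blood and the RPE, which handles large amounts of lipid.

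Since these genes are known to share control at their promoters, RefSeq promoter windows (GRCm38.p6, a later build than the mm9 build of the expression data) were read for the members. A window was found for 5 of the 8 genes with a value, Mvd, Idi1, Lss, Cyp51 and Srebf2, and for none of Fdps, Fdft1 and Sqle. The 250 bases before the transcription start are shown for 3 genes whose transcript fell at P30 (Mvd, Idi1 and Cyp51) and for the 2 that did not pass the test (Lss and Srebf2), 5′ to 3′ on the strand of the gene, with capitals marking each CCAAT box (CCAAT or its complement, the letters bound by NF-Y) and each sterol regulatory element (SRE, searched here as TCACNCCA).

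Mvd, chr8:122443423-122443672, minus strand: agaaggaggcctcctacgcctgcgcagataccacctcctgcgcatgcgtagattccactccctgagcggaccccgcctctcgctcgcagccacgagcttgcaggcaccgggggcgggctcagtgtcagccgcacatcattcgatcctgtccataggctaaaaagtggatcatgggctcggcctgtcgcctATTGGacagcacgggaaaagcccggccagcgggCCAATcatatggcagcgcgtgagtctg
Idi1, chr13:8885356-8885605, plus strand: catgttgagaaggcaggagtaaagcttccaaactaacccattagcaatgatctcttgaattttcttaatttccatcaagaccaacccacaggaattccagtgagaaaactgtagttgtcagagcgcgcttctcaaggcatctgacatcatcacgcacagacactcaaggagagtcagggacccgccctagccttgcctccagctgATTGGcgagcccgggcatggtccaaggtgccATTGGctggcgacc
Cyp51, chr5:4104698-4104947, minus strand: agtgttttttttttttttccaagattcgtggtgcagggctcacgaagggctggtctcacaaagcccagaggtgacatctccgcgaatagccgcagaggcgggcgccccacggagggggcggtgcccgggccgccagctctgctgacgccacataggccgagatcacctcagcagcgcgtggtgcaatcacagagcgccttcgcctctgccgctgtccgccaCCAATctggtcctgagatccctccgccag
Lss, chr10:76531355-76531604, plus strand: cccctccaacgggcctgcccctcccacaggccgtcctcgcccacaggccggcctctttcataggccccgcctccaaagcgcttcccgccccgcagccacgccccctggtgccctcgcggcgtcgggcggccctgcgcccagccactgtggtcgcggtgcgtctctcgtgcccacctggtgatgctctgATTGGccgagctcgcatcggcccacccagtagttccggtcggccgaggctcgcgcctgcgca
Srebf2, chr15:82147019-82147268, plus strand: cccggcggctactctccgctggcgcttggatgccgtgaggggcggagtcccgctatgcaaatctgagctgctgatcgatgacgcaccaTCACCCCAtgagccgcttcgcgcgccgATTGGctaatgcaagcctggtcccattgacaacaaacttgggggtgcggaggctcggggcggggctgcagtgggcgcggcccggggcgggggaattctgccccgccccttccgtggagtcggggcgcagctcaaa

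Each of the 5 genes held a CCAAT box in its window, against 37.5% of all genes with a RefSeq window of the same length, counting both strands and any window of a gene. The first base of the box nearest to the start lay 27 bases before it in Mvd, 14 in Idi1, 29 in Cyp51, 62 in Lss and 135 in Srebf2. The SRE letters were present in Srebf2 alone among the 5, 162 bases before the start, and in 4.20% of all genes. Only the exact letters TCACNCCA were searched, so elements with other letters or outside the window were missed, and their absence was not tested. A GC box (GGGCGG on either strand, the letters bound by Sp1) was present in all 5 genes and in 35.4% of all genes. With the enzymes of the pathway that were not among the 9 genes, 16 of 21 genes had a window, of which 15 held a CCAAT box, 15 a GC box and 2 the SRE letters (Srebf2 and Msmo1). The CCAAT box was thus present both in genes that fell with age and in those that did not pass the test.

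Transcripts of 5 of the 8 genes, Mvd, Idi1, Fdft1, Sqle and Cyp51, fell from P5 to P30 at an adjusted p under 0.05 (limma on log2(FPKM + 1), Benjamini-Hochberg over 12481 genes), the limit used here for the words fell and rose. Over all genes tested, 22.4% fell by this rule. At the limits of the study, an adjusted p under 0.01 together with 2-fold or more between the means of FPKM + 1, 3 of the 8 fell (Mvd, Fdft1 and Cyp51), against 5.82% of all genes tested, and 0 rose. These 3 became 0 when any 1 P5 isolation was left out, 1 without P30 replicate 1 (Mvd) or replicate 3 (Sqle), and 4 without P30 replicate 2. Over all genes tested, the 726 that fell past these limits became 427, 291 and 297 without P5 replicate 1, 2 and 3. Without P30 replicate 1, 2 and 3 they were 727, 754 and 704. Each P30 isolation lay below each P5 isolation in the same 5 genes, and 33.0% of all genes tested were separated in this direction. The median log2 fold change over the 8 genes was -1.06, and over all genes tested it was -0.097. Summed over the 7 enzymes with a value, the FPKM was 207, 193 and 208 in the P5 isolations against 105, 124 and 67.8 in those of P30, so that the P30 mean was 48.8% of the P5 mean. All 8 genes had a mean FPKM of at least 5 at each age, the minimum set for the test. In bulk samples, fewer cells of a type and less RNA per cell cannot be told apart.

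**Figure D1:**
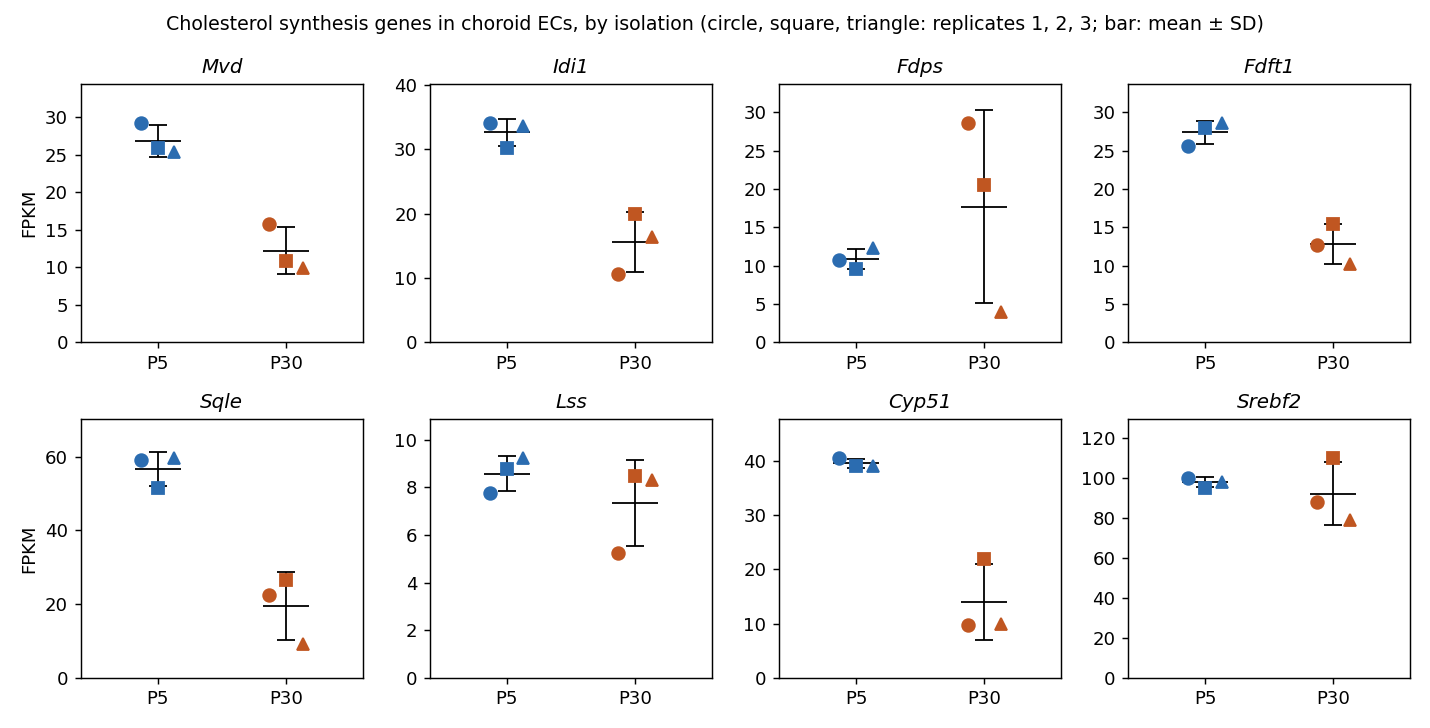
FPKM (linear axes from 0) of the 8 genes in the 3 P5 and 3 P30 isolations, with the symbol shape giving the replicate number and the bars the mean ± SD. Mvd, Idi1, Fdft1, Sqle and Cyp51 show 2 separate groups, Lss and Srebf2 overlap, and the P30 values of Fdps lie on both sides of those at P5.

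In the mevalonate and isoprenoid steps, Mvd and Idi1 fell to 45.4% and 47.8% of their mean FPKM at P5. Mvd (chromosome 8, 124957496 to 124967322 of mm9), the decarboxylase that makes isopentenyl diphosphate, had an FPKM of 29.3, 25.97 and 25.3 in the P5 isolations against 15.8, 10.9 and 9.96 in those of P30. The groups did not overlap, and P30 replicate 1 was the highest of its age (log2 fold change -1.10 ± 0.22 SE, limma adjusted p = 0.00785). Idi1 (chromosome 13, 8884852 to 8891641), which isomerises isopentenyl diphosphate to its reactive form, had 34.1, 30.3 and 33.6 at P5 and 10.6, 19.9 and 16.3 at P30. Here P30 replicate 1 was the lowest of its age, and all P30 values stayed below all P5 values (log2 fold change -1.06 ± 0.24 SE, limma adjusted p = 0.0127). Without P5 replicate 1 or 3 the adjusted p of Idi1 was 0.0509 and 0.0547.

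Fdps (chromosome 3, 88897514 to 88905881), which joins isoprenoid units to farnesyl diphosphate, was the only gene of the 8 with a higher mean FPKM at P30. Its FPKM was 10.7, 9.58 and 12.3 at P5 and 28.6, 20.5 and 3.89 at P30. Thus 2 of the P30 isolations were above every P5 isolation and the other was below every P5 isolation, and the difference was within this spread (log2 fold change 0.31 ± 0.62 SE, limma adjusted p = 0.717, 95% interval -1.15 to 1.77). The log2 fold change was -0.20 without P30 replicate 1 (adjusted p = 0.807) and 1.10 without P30 replicate 3 (adjusted p = 0.0161). The summed FPKM of 8 RPE markers fell in the same order over P30 replicates 1, 2 and 3 (3913, 2181 and 522), as did that of 8 photoreceptor markers (359, 242 and 41.0). Melanocyte markers (1251, 1118 and 120) and Schwann cell markers (1176, 1075 and 859) had this order too, and the other marker lists did not. Mvd also had this order at P30 (15.8, 10.9 and 9.96). The part of these cells in the Fdps values was not tested.

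At the entry to sterol synthesis, Fdft1 and Sqle both fell. Fdft1 (chromosome 14, 63763990 to 63796630), squalene synthase, which commits farnesyl diphosphate to sterols, had an FPKM of 25.6, 27.9 and 28.6 at P5 and 12.7, 15.4 and 10.2 at P30. The coefficient of variation between its P30 isolations, 20.3%, was the lowest of the 5 genes that fell (log2 fold change -1.06 ± 0.20 SE, limma adjusted p = 0.00661). Sqle (chromosome 15, 59146632 to 59162747), squalene epoxidase and a rate-limiting enzyme of the sterol branch, had 59.2, 51.4 and 59.5 at P5 and 22.6, 26.6 and 9.08 at P30. It had the most negative log2 fold change of the 8 genes, and P30 replicate 3 was well below the other P30 isolations (log2 fold change -1.62 ± 0.36 SE, limma adjusted p = 0.0116). Without P5 replicate 3 its adjusted p was 0.0509.

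Of the first steps on the sterol rings, Cyp51 fell and Lss did not pass the test. Lss (chromosome 10, 75994333 to 76019883), which folds squalene epoxide into lanosterol, had the lowest mean FPKM of the 8 at either age, with 7.77, 8.76 and 9.22 at P5 and 5.25, 8.47 and 8.30 at P30. The ranges overlapped (log2 fold change -0.22 ± 0.29 SE, limma adjusted p = 0.565), and the 95% interval, from -0.90 to 0.45, does not leave out a fall or a rise of moderate size. Cyp51 (chromosome 5, 4081145 to 4104746), the lanosterol demethylase, had 40.5, 39.1 and 39.1 at P5, the closest agreement between isolations of the 8 genes, and 9.69, 22.0 and 10 at P30. P30 replicate 2 was above the other P30 isolations but well below P5 (log2 fold change -1.54 ± 0.30 SE, limma adjusted p = 0.00746).

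Srebf2 (chromosome 15, 81977696 to 82035806), whose protein drives transcription of these enzymes, had the highest FPKM of the 8 genes at both ages. It had an FPKM of 99.96, 94.98 and 98.1 at P5 and 88.1, 110 and 78.6 at P30. The P30 isolations lay on both sides of the P5 range, and the difference did not pass the test (log2 fold change -0.097 ± 0.14 SE, limma adjusted p = 0.605, 95% interval -0.42 to 0.23). It passed the test with every sample scaled to its endothelial markers alone among the 20 alternatives (log2 fold change -0.46, limma adjusted p = 0.0478), a scaling that moved the median of all genes by -0.36. Taken as a percentage of the Srebf2 FPKM of the same isolation, a quantity in which the scaling of each sample cancels, Cyp51 was 40.5 ± 0.64% (SD, n = 3) at P5 and 14.6 ± 4.82% at P30, and Sqle was 58.0 ± 3.43% and 20.5 ± 7.77%. Fdft1 was 28.1 ± 2.09% and 13.8 ± 0.76% on this measure. The ages did not overlap in this percentage for Mvd, Idi1, Fdft1, Sqle and Cyp51, and overlapped for Fdps and Lss.

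The levels were set in order at each age. At P5 the mean FPKM was 97.7 for Srebf2, followed by Sqle (56.7), Cyp51 (39.6), Idi1 (32.6), Fdft1 (27.4), Mvd (26.9), Fdps (10.8) and Lss (8.58), and among neighbours in this order only Fdft1 and Mvd had overlapping ranges. At P30 it was 92.1 for Srebf2, and Sqle (19.4), Fdps (17.7), Idi1 (15.6), Cyp51 (13.9), Fdft1 (12.8) and Mvd (12.2) had ranges that overlapped each other, so that their order was not resolved. Lss had 7.34 at P30 and overlapped with Fdps alone. The genes varied more between the P30 isolations, with a coefficient of variation between 17.3% and 71.3%, than between the P5 isolations, where it was between 2.02% and 12.5%. Over all genes tested the median was 9.37% at P5 and 18.2% at P30.

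The isolations of P30 differed in which genes were lowest. P30 replicate 3 had the lowest FPKM of its age in 5 of the 8 genes (Mvd, Fdps, Fdft1, Sqle and Srebf2) and P30 replicate 1 in the other 3 (Idi1, Lss and Cyp51), while P30 replicate 2 was highest in 6 of 8, against 46.1% of all genes tested. The deposited values of P30 replicate 2 also had the highest summed FPKM of that age (1734639, against 1638626 and 1571227 in replicates 1 and 3) and the highest upper quartile (66.4, against 59.0 and 58.8), and the part of this in the order was not tested. Over 20 enzymes of the pathway, P30 replicate 3 was lowest in 13 (65.0%), against 38.4% of all genes tested, and P30 replicate 2 was lowest in 0, against 19.2%.

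Some of these genes have near-identical copies in the genome, which bear on how reads were assigned. Their coding sequences were compared with the mm9 genome, counting loci outside the gene with at least 85% identity over at least 25% of the coding length. Idi1 had 5 such loci, the closest identical over 86.6% of its coding sequence, Fdps had 6, the closest 98.9% identical over the whole coding sequence, and Fdft1 had 1, 97.4% identical over the whole coding sequence. No such locus was found for Mvd, Sqle, Lss, Cyp51 or Srebf2. The FPKM of Idi1, Fdps and Fdft1 is therefore uncertain, since the assignment of reads that match several loci is not given in the sources used here, while the falls of Mvd, Sqle and Cyp51 concern genes without such copies.

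The enzymes of the pathway that were not among the 9 genes had a less negative median log2 fold change. This difference was not tested, and earlier results of these data were known when the 9 genes and the other enzymes were listed. All 13 had a value, 5 fell (among them Acat2, Lbr, Hsd17b7 and Dhcr7), against 22.4% of all genes tested, and 0 rose. In limma 0 of them passed the limits of the study, where 5.82% of all genes tested fell past these limits. Each P30 isolation lay below each P5 isolation in 8 of the 13, against 33.0% of all genes tested. Their median log2 fold change was -0.39. Their summed FPKM was 803, 814 and 817 at P5 and 634, 719 and 563 at P30, a P30 mean of 78.8% of that at P5. Without P5 replicate 2 only 1 of the 13 fell, and the genes past the limits of the study over all genes tested went from 726 to 291 lower at P30.

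Of the last steps, Dhcr7 had 43.9, 43.0 and 43.9 at P5 and 18.4, 25.7 and 27.6 at P30. This reductase fell at an adjusted p of 0.00959 from limma, by less than 2-fold in mean FPKM + 1 (log2 fold change -0.86, SE 0.18). Hsd17b7, a sterol ketone reductase, fell from 25.9 ± 2.05 to 13.2 ± 2.33 (log2 fold change -0.93 ± 0.20 SE, limma adjusted p = 0.0102). At the other end of the range, Msmo1 (listed under its older symbol, Sc4mol), Ebp and Tm7sf2 had log2 fold changes of -0.074, 0.15 and 0.28, none of which passed the test.

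**Figure D2:**
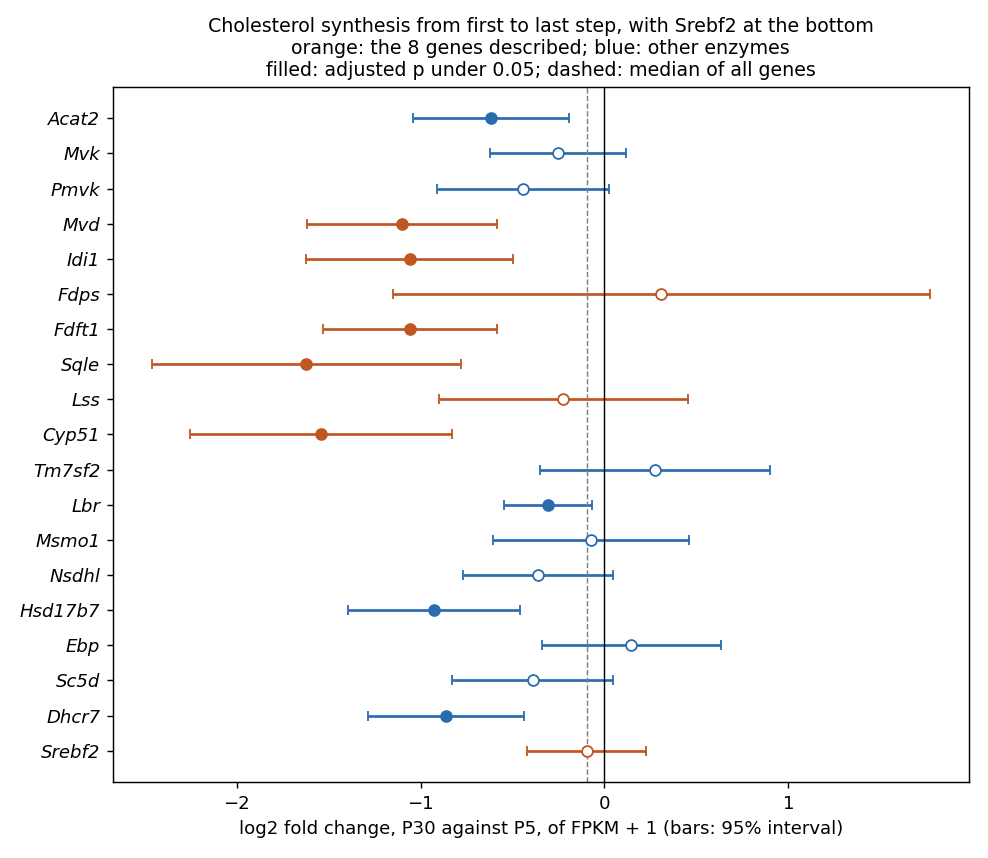
Log2 fold change of FPKM + 1, P30 against P5, with its 95% interval from limma, for 18 enzymes in the order of the pathway and for Srebf2, where filled points have an adjusted p under 0.05 and the dashed line is the median of all genes tested (-0.097). Sqle (-1.62) and Cyp51 (-1.54) lie farthest to the left, and the 9 filled points are all below 0.

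Of 6 genes listed for SREBP control, among them Srebf1, which encodes SREBP1 itself, 2 rose, against 16.1% of all genes tested. In this list 0 fell and 0 passed the limits of the study. Srebf1 had overlapping ranges and did not pass the test (log2 fold change 0.59 ± 0.22 SE, limma adjusted p = 0.066). Mbtps1 and Mbtps2, the proteases that cleave SREBP, had a P30 mean of 79.0% and 69.1% of that at P5 and did not pass the test (limma adjusted p = 0.0753 and 0.0842). In these 2 of the 6 genes every P30 isolation lay below every P5 isolation, a count near the 33.0% of all genes tested. The 2 genes that rose were separated in the other direction, as were 22.0% of all genes tested. Scap, which escorts SREBP to the Golgi, rose from 60.5 ± 4.76 to 79.2 ± 7.29 (SD, n = 3, log2 fold change 0.38 ± 0.12 SE, limma adjusted p = 0.0443), and Insig2, which holds SREBP back in the endoplasmic reticulum, rose from 63.8 ± 3.05 to 97.0 ± 20.9 (log2 fold change 0.58 ± 0.16 SE, limma adjusted p = 0.0270). Scap passed the test in 11 of 20 alternatives and Insig2 in 16, and neither did without any 1 of the P5 isolations or with every sample scaled to its endothelial markers (adjusted p = 0.902 and 0.344). Insig1, the sterol-responsive form, had 113, 117 and 85.7 at P5 and 88.4, 101 and 114 at P30, overlapping ranges (log2 fold change -0.052 ± 0.16 SE, limma adjusted p = 0.815, of a sign that changed with median ratio scaling, 0.034).

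Among genes of cholesterol uptake and transport, Stard4 fell and Mylip rose past the limits of the study. Stard4, a sterol carrier that SREBP2 is known to induce, had an FPKM of 162, 156 and 165 at P5 and 74.7, 55.4 and 73.9 at P30 (log2 fold change -1.24 ± 0.14 SE, limma adjusted p = 0.000756). Mylip, a ubiquitin ligase that LXR is known to induce and that limits lipoprotein uptake, had 139, 126 and 125 at P5 and 424, 473 and 617 at P30 (log2 fold change 1.93 ± 0.15 SE, limma adjusted p = 0.000218). Both groups were well apart in these genes. Npc2, a lysosomal sterol carrier, rose at a limma adjusted p of 0.0451 (log2 fold change 0.38 ± 0.12 SE), and passed in 10 of 20 alternatives, while Npc1 did not pass the test.

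The genes of sterol export and of the LXR receptors, which sense oxidised sterols, moved in both directions. Of 8 genes, 4 rose, against 16.1% of all genes tested, and 1 fell, and 3 rose past the limits of the study (Nr1h2, Apoe and Ch25h), against 5.89% of all genes tested. Ch25h, which makes an oxidised sterol that blocks SREBP cleavage, had an FPKM of 6.97, 5.47 and 1.29 at P5 and 128, 236 and 144 at P30. This was the largest difference among the genes listed here outside the marker lists (log2 fold change 5.07 ± 0.47 SE, limma adjusted p = 0.000397). Nr1h2, LXR beta, had 157, 151 and 133 at P5 and 399, 351 and 268 at P30 (log2 fold change 1.19 ± 0.16 SE, limma adjusted p = 0.00161), with an adjusted p of 0.0114 without P5 replicate 3 and a log2 fold change of 0.82, under the limit of the study, with endothelial marker scaling. Nr1h3, LXR alpha, rose at an adjusted p of 0.0320 from limma from 7.48, 6.23 and 2.16 to 9.66, 55.9 and 29.9, and P30 replicate 1 was close to the P5 isolations. Its adjusted p was 0.00712 without P30 replicate 1 and above 0.05 without any other single isolation. The summed FPKM of 7 pericyte markers had the same order of isolations as Nr1h3 and Ch25h at P5 (1765, 933 and 497), and at P30 (1872, 6290.4 and 3857) it was likewise lowest in replicate 1 and highest in replicate 2, and the part of these cells was not tested.

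Apoe, a lipoprotein component that accepts exported cholesterol, had 1377, 809 and 578 at P5 and 3465, 2217 and 2199.6 at P30 (log2 fold change 1.57 ± 0.32 SE, limma adjusted p = 0.00870). It passed the limits of the study in 9 of 20 alternatives. The adjusted p was 0.0155 to 0.0362 when any 1 isolation other than P5 replicate 1 was left out, and 0.0105 to 0.0231 with no minimum FPKM, no trend, robust eBayes, quantile normalization, equal summed FPKM or endothelial marker scaling. Abca1, an export pump that LXR is known to induce, fell from 241, 226 and 250 to 104, 149 and 113, a change of just under 2-fold in mean FPKM + 1 (log2 fold change -0.98 ± 0.14 SE, limma adjusted p = 0.00233). Its partner Abcg1 had overlapping ranges (log2 fold change -0.12 ± 0.14 SE, limma adjusted p = 0.518).

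**Figure D3:**
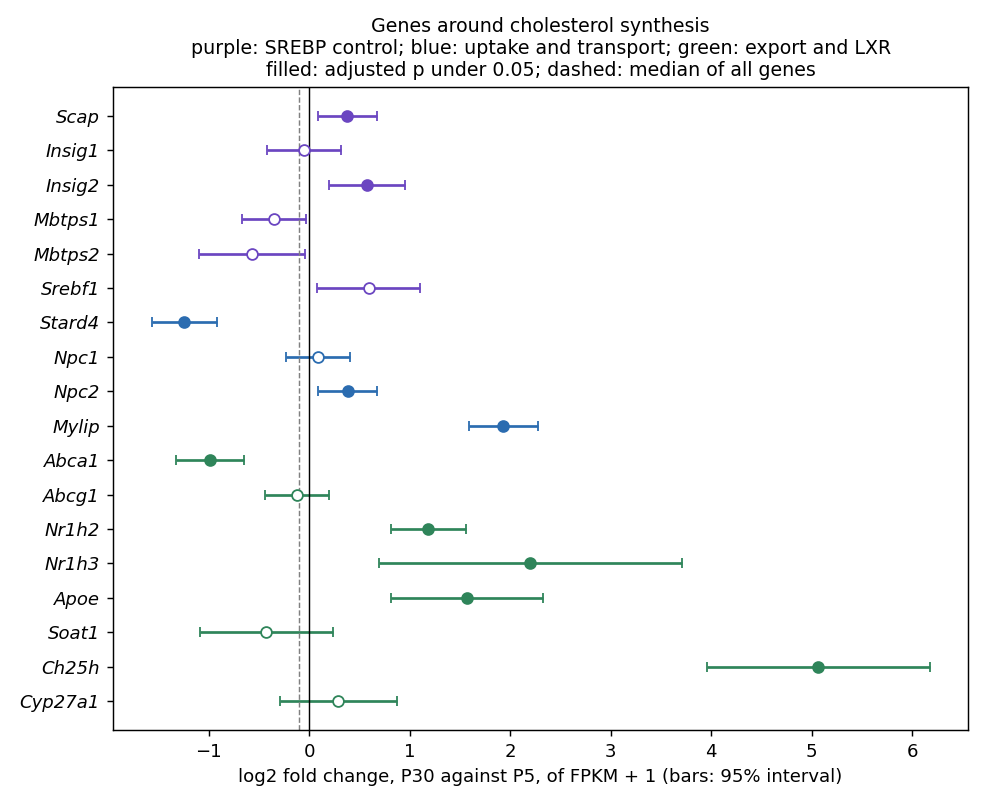
Log2 fold change of FPKM + 1, P30 against P5, with its 95% interval from limma, for genes of SREBP control, of cholesterol uptake and transport, and of export and LXR (filled: adjusted p under 0.05; dashed: median of all genes tested). Ch25h (5.07) and Mylip (1.93) lie to the right and Stard4 (-1.24) and Abca1 (-0.98) to the left of 0.

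Branches next to the pathway were described in the same way. Of 8 genes that use isoprenoids for ubiquinone, dolichol or protein prenylation, Fntb and Pggt1b, subunits of prenyltransferases, fell, Coq2 rose, and 0 passed the limits of the study, counts of 2 and 1 of 8 that lie near the 22.4% and 16.1% of all genes tested. Without any 1 of the P5 isolations none of the 3 passed the test (adjusted p = 0.0502 to 0.122), and Fntb passed in 12 of 20 alternatives. Ggps1, which extends farnesyl to geranylgeranyl diphosphate, went from a mean FPKM of 65.4 ± 4.10 to 67.9 ± 3.48 (log2 fold change 0.055 ± 0.11 SE, limma adjusted p = 0.720, 95% interval -0.21 to 0.32). Of 7 genes of fatty acid synthesis, 4 fell (Acly, Fasn, Elovl6 and Scd2), with log2 fold changes from -0.39 to -0.89, against 22.4% of all genes tested. Scd1 rose past the limits of the study, as did 5.89% of all genes tested. Scd1, a fatty acid desaturase, had 9.35, 9.54 and 10.9 at P5 and 33.1, 40.9 and 40.7 at P30 (log2 fold change 1.84 ± 0.18 SE, limma adjusted p = 0.000470), and the related Scd2 had 299, 284 and 237 at P5 and 141, 192 and 181 at P30 (log2 fold change -0.67 ± 0.15 SE, limma adjusted p = 0.0115). Fasn, fatty acid synthase, fell from 31.2 ± 1.77 to 16.7 ± 4.43 (log2 fold change -0.89 ± 0.22 SE, limma adjusted p = 0.0171), a call that was lost without any 1 of the P5 isolations (adjusted p = 0.0609 to 0.0669). The calls of Acly (0.0502 to 0.0747) and Elovl6 (0.0884 to 0.126) were lost in the same way, and that of Scd2 was lost without P5 replicate 2 (0.0518).

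Markers of ECs and of other cells were read in the same samples. The 10 endothelial markers had sums of 21588 to 22877 FPKM at P5 and of 30262 to 36812 at P30, with 1 past the limits of the study (Plvap, a mean of 4692 at P5 and 11590 at P30). At an adjusted p under 0.05, 5 of the 10 rose (Plvap, Emcn, Esam, Kdr and Tie1), against 16.1% of all genes tested, and 1 fell, against 22.4%. The gene that fell was Cdh5, which encodes VE-Cadherin, to 63.5% of its P5 mean (log2 fold change -0.66 ± 0.093 SE, limma adjusted p = 0.00205). Pecam1, at 88.2%, did not pass the test. The 10 proliferation markers all fell past the limits of the study, from sums of 866 to 1581 at P5 to sums of 18.5 to 24.7 at P30, with Birc5 listed at 0 in each P30 isolation. This fall ran beside that of the enzymes. Within P5, where the proliferation sum was 866, 1247 and 1581 in replicates 1, 2 and 3, the 7 enzymes summed to 207, 193 and 208. These proliferation sums differed far less from each other than from those of P30. The part of proliferation in the fall of the enzymes was not tested. Over all genes tested, 5.89% rose and 5.82% fell past the limits of the study. For the other cells, counts past these limits are out of the markers tested, since some markers were below the minimum FPKM. The 8 RPE markers summed to between 69.7 and 151 at P5 and between 522 and 3913 at P30 (6 of 7 past the limits). Rpe65 was at 0 in 2 of the P5 isolations. The 8 photoreceptor markers summed to between 2.21 and 7.25 at P5 and between 41.0 and 359 at P30 (3 of 5). Pde6a, Rcvrn and Cnga1 were at 0 in each P5 isolation. The sums were 497 to 1765 and 1872 to 6290.4 for pericytes (0 of 7), 85.1 to 173 and 302 to 1064 for smooth muscle (1 of 4), and 725 to 1193 and 1777 to 4488 for fibroblasts (1 of 6). They were 188 to 314 and 859 to 1176 for Schwann cells (1 of 5), 97.0 to 457 and 120 to 1251 for melanocytes (0 of 5), and 151 to 484 and 433 to 1394 for erythroid cells (0 of 3). Of 7 haematopoietic markers, 2 fell past the limits of the study, and the sums were 541 to 802 at P5 and 318 to 809 at P30. The part of these cells in the differences of the cholesterol genes was not tested.

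**Figure D4:**
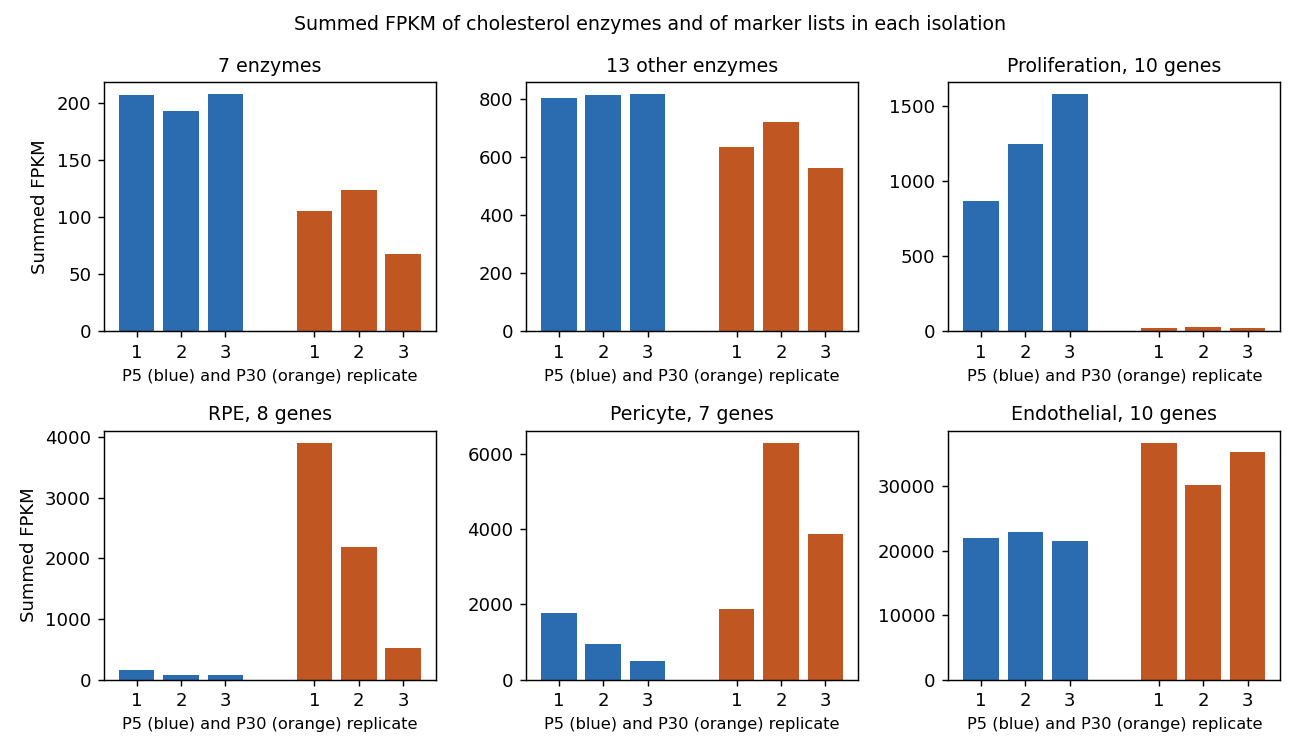
Summed FPKM (linear axes from 0) in each isolation of the 7 enzymes, of the 13 other enzymes of the pathway, and of proliferation, RPE, pericyte and endothelial markers. The 7 enzymes are lowest in P30 replicate 3 (67.8), where the RPE markers are also lowest for that age (522), and the proliferation markers are below 25 in every P30 isolation.

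The mean centred profile of the 7 enzymes over the 6 isolations was 0.46, 0.39 and 0.50 at P5 and -0.38, -0.083 and -0.89 at P30, in units of log2(FPKM + 1). Among 12473 other genes, the 5 nearest to it by root mean square difference were Casq1 (0.064), Tead1 (0.067), Prkra (0.068), Fn1 (0.080) and Tfdp1 (0.089), where the median gene had 0.54. Of the members, Fdft1 was nearest to the mean profile (0.12) and Fdps farthest from it (0.86). Fn1, which encodes fibronectin, had an FPKM of 320.3, 323 and 305 at P5 and 195, 220.1 and 120.0 at P30. Tead1 and Tfdp1, transcription factors, Prkra, a regulator of the kinase PKR, and Casq1, a calcium store protein of muscle, were the others, and the order of their isolations was fixed by the choice. Casq1 passed the minimum FPKM through P5 alone (5.57, 5.61 and 5.64, against 2.56, 3.82 and 1.44 at P30) and did not pass the test (limma adjusted p = 0.112).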

How the data were processed

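RNA from sorted choroid ECs was sequenced by the authors (TruSeq libraries, HiSeq2000), base calls being made with CASAVA 1.8.2 per the labels. After FastQC, reads were aligned by the authors to mm9 (TopHat, default settings), and FPKM came from Cufflinks under GC and upper quartile normalization. The authors deposited 1 FPKM per gene symbol and isolation. The versions of TopHat and Cufflinks and the gene annotation are not given in the sources used here. Samples were grouped by their labels. The replicate numbers were not treated as pairs in the reported fit. Deviations of same-numbered isolations correlated at -0.09 to -0.03, which with 3 isolations per age cannot show whether isolations were made in pairs.

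From the FPKM values, log2(FPKM + 1) was tested with limma 3.58.1 in R 4.3.3 (moderated by eBayes, trend on), in place of the count test of the study, for every gene whose mean FPKM reached 5 at either age, with Benjamini-Hochberg adjustment over all of them. This scale understates the change of genes with low FPKM. The fit was tested on simulated data. P-values measure the spread between isolations of pooled animals. Other calculations used Python 3.11.15, pandas 2.3.3 and numpy 2.4.6. Gene positions are those of GENCODE for mm9, matched by symbol, and promoter sequences are those of RefSeq (GRCm38.p6). The members and gene lists were chosen with earlier results of these data known. Genes named beyond the members were Dhcr7, Insig1 and Abca1 for their roles, all genes of the pathway lists past the limits of the study, and the 5 nearest profiles. Further genes of the lists, and the markers, were named after their values were seen. Some genes of the lists enter the counts and sums but are not reported here by name. The 20 alternatives varied the pseudocount, the minimum FPKM, the trend and robustness of eBayes, the scaling, the definition of fold and the replicate block, or left out each isolation in turn.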

Additional observations from a re-analysis of the deposited data

How the results depend on the processing

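Among 20 alternatives, the 5 genes that fell kept their direction, and the adjusted p stayed under 0.05 in all 20 for Mvd, Fdft1 and Cyp51, in 19 for Sqle and in 18 for Idi1. The direction could not change in the alternatives of trend, robustness, minimum FPKM, replicate block and definition of fold, which leave the log2 fold change as it was. The definition of fold also leaves every adjusted p unchanged. The count past the limits of the study moved more. In place of 3 members past them there were 2 with a pseudocount of 5 (Cyp51 and Sqle), 2 with no trend (Mvd and Fdft1), 0 with no minimum FPKM, 1 with quantile normalization, 1 with median ratio scaling, and 5 with equal summed FPKM and with endothelial marker scaling, and leaving out an isolation gave between 0 (without any 1 P5 isolation) and 4 (without P30 replicate 2). For members at an adjusted p under 0.05, leaving out an isolation gave between 3 (without P5 replicate 3) and 5 lower at P30, and between 0 and 1 higher (Fdps, without P30 replicate 3). Of the 13 other enzymes, 2 (Hsd17b7 and Dhcr7) passed the limits of the study with equal summed FPKM and 2 with endothelial marker scaling, where 10 fell at an adjusted p under 0.05 under each, and leaving out an isolation gave between 1 and 6 lower and between 0 and 1 higher. With the replicate number as a block, 0 members passed the limits of the study and 2 of the 13 other enzymes fell. Whether these numbers pair the samples is not known. Equal summed FPKM moved the median of all genes by -0.17 and endothelial marker scaling by -0.36. Relative to that median, Sqle had -1.52 in the reported fit and -1.51 with endothelial marker scaling, and Cyp51 -1.45 and -1.43. Endothelial marker scaling called 493 genes higher and 1628 lower and equal summed FPKM 632 and 1070, against 735 and 726. Genes called lower numbered 427, 291 and 297 without P5 replicate 1, 2 and 3, and 524 with the replicate block. They numbered 705 with no minimum FPKM, 709 with quantile normalization and 624 with median ratio scaling. The share of all genes at an adjusted p under 0.05 was not counted in the alternatives, so the counts at that limit have no such share beside them. The sign changed for Fdps with endothelial marker scaling (-0.026) and for Insig1 with median ratio scaling (0.034). Leaving out an isolation gave -0.20 (without P30 replicate 1) to 1.10 (without P30 replicate 3) for Fdps, -0.23 to 0.0091 (without P30 replicate 3) for Srebf2, and -0.19 to 0.041 for Insig1, where the sign also changed without P5 replicate 1 (0.0052) and P5 replicate 2 (0.032). Of these values, Fdps without P30 replicate 3 alone passed the test (adjusted p = 0.0161). Lss was not tested with a minimum FPKM of 10. The cause of these changes was not tested. The depth behind low values, such as those of Lss and Fdps, is unknown.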
